A study of Mus musculus with 6 samples.

Results

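The genes of bile acid synthesis, conjugation and feedback were examined in the livers of mice fed regular or soy-enriched chow. The 10 genes were fixed by name, and their probes were those whose RefSeq accession belongs to 1 of them. They are measured by 14 of the 56605 probes on the array, and they are 10 of the 22911 genes for which a symbol was found. Male mice, 12 weeks old at the start, received granulated regular chow (control, 3 mice) or granulated chow with 25% soy bean powder (soy, 3 mice) for 28 days, and liver RNA of each mouse was hybridized to its own 1-colour Agilent array. The paper reports more lipid and protein and less available carbohydrate in the soy chow than in the regular chow. The strain and the hour of collection were not given in the sources used here. Values are normalized signals on the log2 scale, so that a difference of 1 is a doubling, and each gene is given by its probe with the highest mean signal. The arrays lie on 3 slides, where slide 1 holds control 1, control 2 and soy 1, slide 2 holds soy 2, and slide 3 holds control 3 and soy 3. Control arrays had 37010, 36366 and 38163 spots well above background and soy arrays 31308, 31988 and 32498, and the precision of every value is limited by 3 arrays per group. None of the 10 genes was dim, since each was well above background on all 6 arrays by its brightest probe and none was saturated.

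Hepatocytes make bile acids from cholesterol. In the classic route Cyp7a1 sets the rate and Cyp8b1, the sterol 12-alpha-hydroxylase, directs the product towards cholic acid, while Cyp27a1 and Cyp7b1 serve the alternative route through oxysterols. Slc27a5 activates bile acids with coenzyme A and Baat joins them to taurine or glycine. The synthesis is held in check by FXR, the bile acid receptor encoded by Nr1h4, which induces the repressor SHP (Nr0b2) in liver and the hormone FGF15 in the gut, and FGF15 acts on hepatocytes through the receptor Fgfr4 and its partner beta-klotho (Klb).

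No gene of the 10 passed in the soy livers. A gene passed at a Benjamini-Hochberg adjusted p under 0.05 over all probes in limma with a fold change above 1.5 or under 0.66, as 0.458% of all genes did by their brightest probe and 0.350% of all probes. The smallest adjusted p was 0.136, for Cyp8b1. At an unadjusted p under 0.05 there were 3 of the 10, Cyp8b1, Nr1h4 and Baat, where 14.3% of all genes lay. Nevertheless 4 of the 10 genes, Cyp8b1, Nr1h4, Fgfr4 and Baat, had their lowest soy value above their highest control value, and 0 were lower without overlap. Of all genes 20.5% were without overlap, 9.68% higher and 10.8% lower in soy. By probe 6 of the 14 were higher without overlap and 0 lower, where 18.0% of all probes were without overlap, 7.75% higher and 10.3% lower. The median difference of the 10 genes was 0.16, or 0.26 without control 3, and it was -0.01 over all genes. In whole livers such as these, fewer cells of a type and less RNA per cell cannot be told apart.

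**Figure D1:**
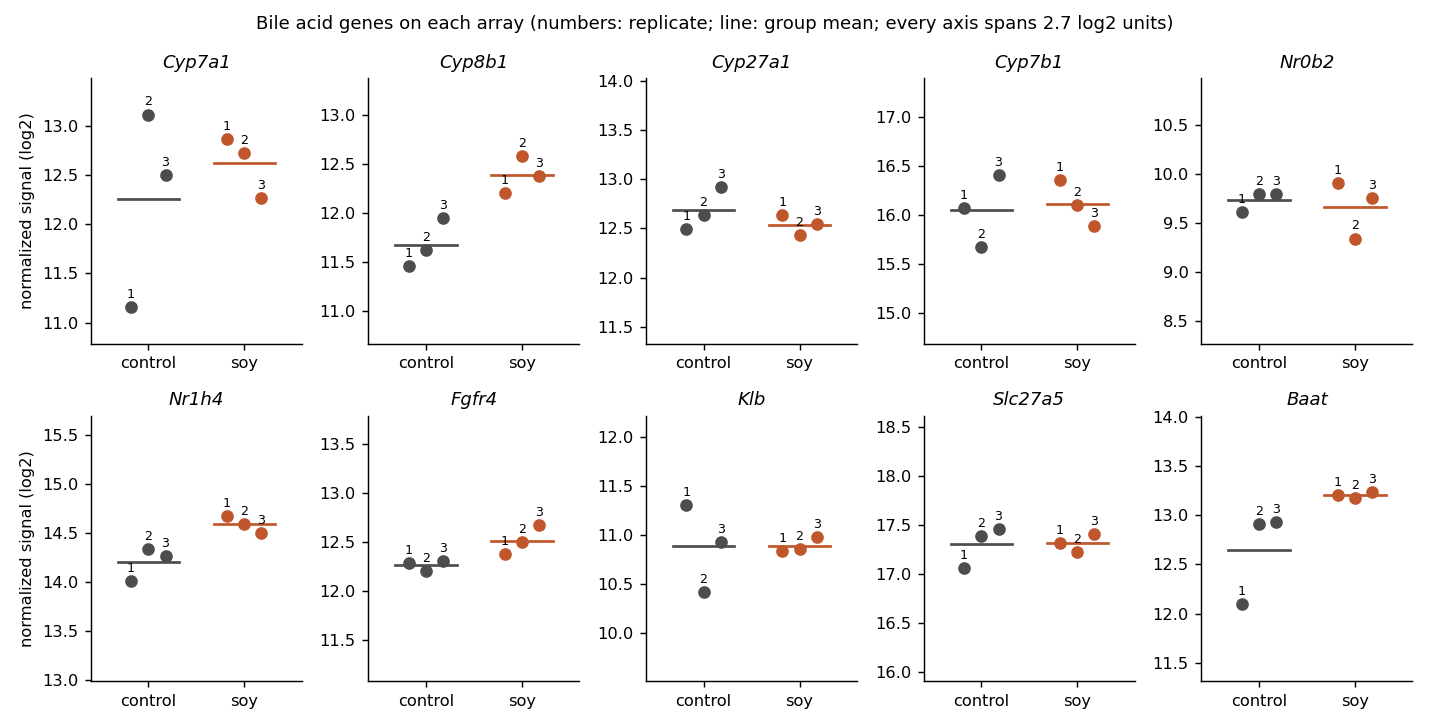
Normalized signal (log2) of the brightest probe of each of the 10 genes on the 3 control (grey) and 3 soy (orange) arrays, with the replicate number at each point, the group mean as a line, and axes of equal span. Soy and control points are apart for Cyp8b1, Nr1h4, Fgfr4 and Baat and overlap for the other genes, and control 1 stands low for Cyp7a1 and Baat.

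With all 6 arrays Cyp8b1 had the largest difference of the 10. Without control 2 the differences of Cyp7a1 (0.793) and Baat (0.692) exceeded that of Cyp8b1 (0.686). Cyp8b1 was 11.46, 11.63 and 11.95 in control 1, 2 and 3 and 12.20, 12.58 and 12.38 in soy 1, 2 and 3. All soy values lay above the control values, the gap between the nearest arrays being control 3 to soy 1. The groups stood at 11.68 ± 0.25 and 12.39 ± 0.19 (SD, n = 3), a difference of 0.71 (SE 0.16, 95% interval 0.35 to 1.08, adjusted p = 0.136 in limma), or a fold change of 1.64. Within slide 1 the soy array was 0.66 above the mean of the controls and within slide 3 it was 0.43 above. The call depends on the signal used: with the processed signal of the scanner software, scaled to the 75th percentile, Cyp8b1 was 0.76 higher with an adjusted p of 0.0196 and passed, as did 23.2% of all probes and 4.50% of the probes well above background on all arrays. Over all alternatives its adjusted p lay between 0.0196 and 0.330.

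Cyp7a1, the rate-limiting enzyme, was the most variable of the 10 in control livers. Its values were 11.15, 13.12 and 12.50 in controls and 12.87, 12.72 and 12.27 in soy livers. The lowest and the highest of the 6 values were both controls, so that the soy values lay inside the control range. Between control 1 and control 2 the signal differed 3.90-fold, and the control SD of 1.00 was larger than that of 99.4% of the 13499 genes well above background on all arrays. The difference was 0.36 (SE 0.45, 95% interval -0.68 to 1.41, adjusted p = 0.805 in limma), an interval that holds both a fall and a rise of more than the fold threshold. Its direction turned within slides, with 0.73 on slide 1 and -0.23 on slide 3, and the difference was -0.19 without control 1 and 0.79 without control 2.

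The enzymes of the alternative route did not separate the groups. Cyp27a1, the mitochondrial sterol 27-hydroxylase, ranged from 12.49 to 12.93 in control and from 12.43 to 12.63 in soy livers, a difference of -0.15 (95% interval -0.46 to 0.16, adjusted p = 0.722 in limma), or -0.03 without control 3 and -0.24 without control 1. For Cyp7b1, the oxysterol 7-alpha-hydroxylase, the ranges were 15.67 to 16.41 and 15.89 to 16.35, a difference of 0.07 (95% interval -0.41 to 0.54, adjusted p = 0.931 in limma), and its other probe, for a predicted transcript, gave 0.11 (adjusted p = 0.892). The difference of Cyp7b1 was 0.48 on slide 1 and -0.52 on slide 3.

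Of the conjugation enzymes, Baat was higher in every soy liver and Slc27a5 was not. The brighter Baat probe read 12.09, 12.91 and 12.93 in controls and 13.20, 13.17 and 13.23 in soy livers. Control 1 was far below the other controls on this probe, and the soy values were nearly equal. The difference was 0.56 (SE 0.22, 95% interval 0.05 to 1.07, adjusted p = 0.390 in limma), and it was 0.28 without control 1. The other Baat probe, for the same transcript, read 12.32, 12.27 and 12.28 in controls and 12.72, 12.84 and 12.70 in soy livers. On that probe control 1 was level with the other controls, and the groups were again apart. Its difference was 0.46 (SE 0.09, 95% interval 0.25 to 0.68, adjusted p = 0.106 in limma), a fold change of 1.38. Slc27a5 lay between 17.06 and 17.46 in controls and between 17.22 and 17.41 in soy livers, with a difference of 0.01 (95% interval -0.29 to 0.31, adjusted p = 0.985 in limma), which leaves no room for a change past the fold threshold.

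The receptor genes Nr1h4 and Fgfr4 were without overlap between the diets, and neither passed. Nr1h4 was 14.01, 14.33 and 14.26 in controls and 14.67, 14.59 and 14.50 in soy livers. Every soy array exceeded every control array, by the least between control 2 and soy 3. The difference was 0.39 (SE 0.12, 95% interval 0.11 to 0.66, adjusted p = 0.261 in limma), a fold change of 1.31, with 0.50 on slide 1 and 0.24 on slide 3. Fgfr4 was 12.29, 12.20 and 12.30 in controls and 12.37, 12.50 and 12.67 in soy livers on its brighter probe. Here soy 1 was only just above the controls. The difference was 0.25 (SE 0.11, 95% interval -0.01 to 0.50, adjusted p = 0.445 in limma). On the other Fgfr4 probe the controls were 11.57, 11.63 and 11.60 and the soy livers 11.82, 12.03 and 12.10. There the groups were further apart, with a difference of 0.39 (SE 0.11, adjusted p = 0.216 in limma), and soy 1 was again the lowest of the soy arrays.

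The partner and the target of these receptors overlapped between the diets. Klb, the co-receptor that FGF15 needs, ranged from 10.42 to 11.30 in controls and from 10.84 to 10.97 in soy livers, a difference of 0.01 (95% interval -0.48 to 0.49, adjusted p = 0.994 in limma). Its dimmer probe, well above background on 1 of 3 soy arrays, gave -0.17 (adjusted p = 0.654). Nr0b2, the SHP gene that FXR induces, ranged from 9.61 to 9.79 in controls and from 9.34 to 9.90 in soy livers, a difference of -0.07 (95% interval -0.43 to 0.30, adjusted p = 0.906 in limma). Soy 2 held its lowest value and soy 1 its highest. Fgf15 itself, whose known source is the gut, was at background on all 6 arrays.

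**Figure D2:**
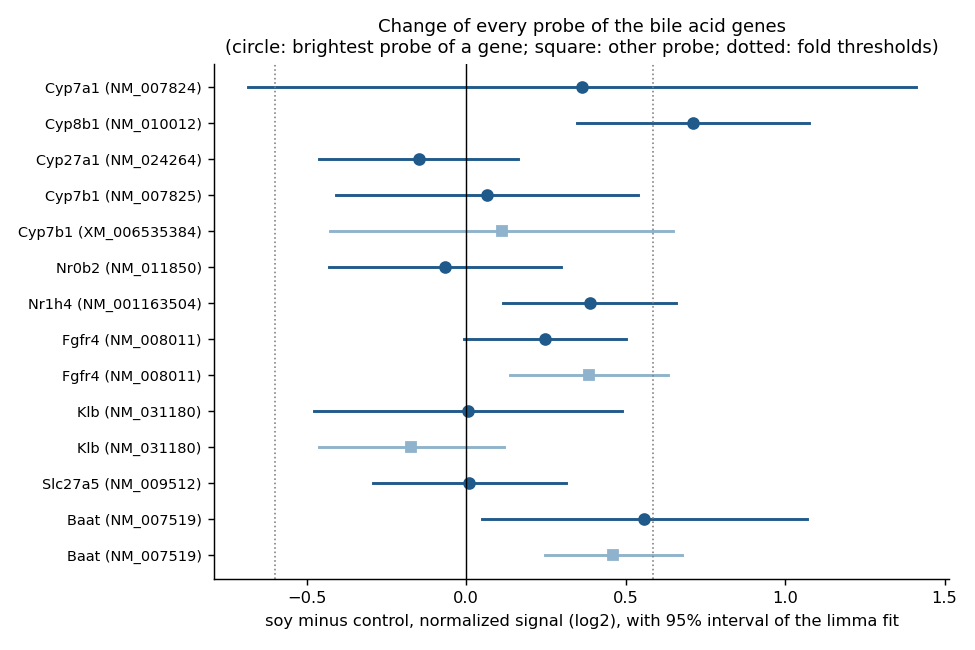
Difference of soy from control in normalized signal (log2) with its 95% interval for all 14 probes of the 10 genes, circles for the brightest probe of a gene and squares for its other probes, with dotted lines at the fold thresholds. Both probes of Fgfr4 and both of Baat lie to the right of 0, and the interval of Cyp7a1, -0.68 to 1.41, is the widest.

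The direction of the smaller differences rests on how the arrays are scaled. By brightest probe 8 of the 10 genes were higher and 2 lower in soy, with 6 to 9 higher when 1 array was left out, and under a shift of each array to its 75th percentile in place of quantile normalization 5 were higher and 5 lower. That shift moves the median of all probes to 0.13, and to 0.02 over the probes well above background on all arrays, and the 5 higher genes lay above 0.13 as well. Cyp8b1, Nr1h4, Fgfr4 and Baat were the genes without overlap under every scaling run. They were higher in soy on slide 1 and on slide 3 alike, Fgfr4 by 0.13 and 0.37 and Baat by 0.70 and 0.30.

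**Figure D3:**
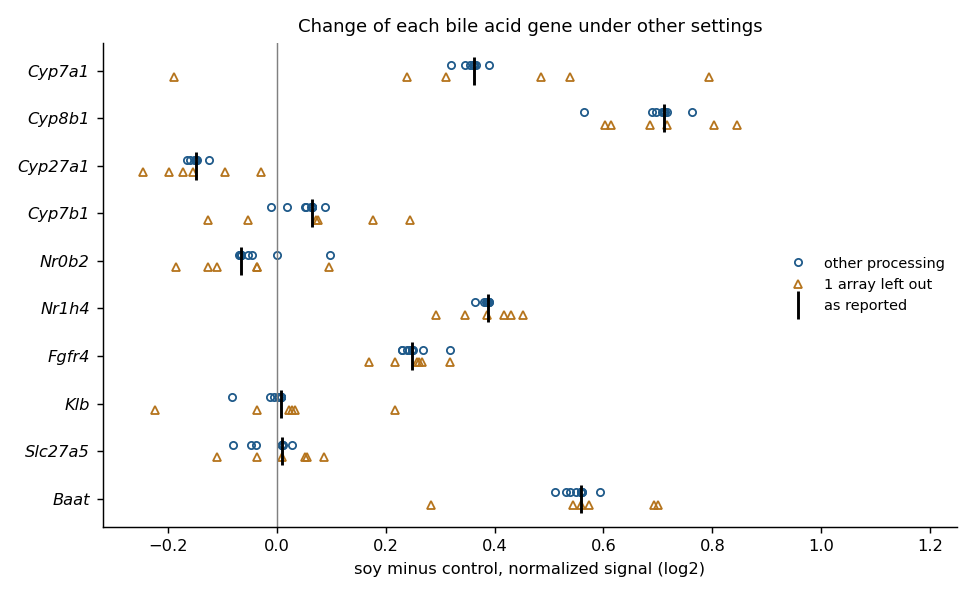
Difference of soy from control (log2) of the 10 genes as reported (bar), under other processing (circles) and with 1 array left out (triangles). Cyp8b1, between 0.56 and 0.85, Nr1h4, Fgfr4 and Baat stay right of 0, and Cyp7a1 spreads from -0.19 to 0.79 when 1 array is left out.

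The promoters of Cyp8b1, Nr1h4 and Fgfr4, higher in every soy liver, and of Nr0b2, the FXR target that was not, are shown to set out which short nuclear receptor and clock motifs stand near their start. The RefSeq table of build GRCm38.p6 holds the 250 bases before and 50 after the start for 6 of the 10 genes, and Cyp7a1, Cyp7b1, Slc27a5 and Baat were not among them. Each sequence is given 5′ to 3′ on the strand of its gene, and capitals mark matches on either strand.
Cyp8b1, chr9:121916256-121916555, minus strand: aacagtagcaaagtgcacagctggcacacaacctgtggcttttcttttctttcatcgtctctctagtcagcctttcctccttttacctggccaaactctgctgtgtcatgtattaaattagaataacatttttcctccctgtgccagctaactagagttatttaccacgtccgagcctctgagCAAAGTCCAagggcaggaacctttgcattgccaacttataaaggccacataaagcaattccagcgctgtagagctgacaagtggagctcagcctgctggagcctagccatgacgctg
Nr1h4, chr10:89506609-89506908, minus strand: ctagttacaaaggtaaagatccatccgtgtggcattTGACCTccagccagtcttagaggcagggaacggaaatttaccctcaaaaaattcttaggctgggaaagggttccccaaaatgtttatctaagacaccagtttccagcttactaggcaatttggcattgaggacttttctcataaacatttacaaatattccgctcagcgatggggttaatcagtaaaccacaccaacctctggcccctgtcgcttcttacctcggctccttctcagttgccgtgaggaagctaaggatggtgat
Fgfr4, chr13:55152568-55152867, plus strand: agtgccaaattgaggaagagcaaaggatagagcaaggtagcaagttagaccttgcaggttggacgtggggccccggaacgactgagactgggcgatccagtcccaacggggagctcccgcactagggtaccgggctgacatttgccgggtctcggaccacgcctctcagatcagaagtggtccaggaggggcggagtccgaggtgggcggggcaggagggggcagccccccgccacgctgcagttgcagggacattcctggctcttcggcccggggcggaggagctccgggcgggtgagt
Nr0b2, chr4:133553126-133553425, plus strand: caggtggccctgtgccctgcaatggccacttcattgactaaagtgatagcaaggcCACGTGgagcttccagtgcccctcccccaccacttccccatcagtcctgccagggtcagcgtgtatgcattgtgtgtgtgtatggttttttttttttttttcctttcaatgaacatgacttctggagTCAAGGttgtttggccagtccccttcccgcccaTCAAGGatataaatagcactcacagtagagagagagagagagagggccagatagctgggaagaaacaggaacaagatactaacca
The letters searched were AGGTCA, the hexamer to which nuclear receptors bind, found in 16.3% of 32851 promoters, CAAGGTCA, its extended form for LRH-1 (1.56%), the inverted repeat of the hexamer with a free base between, bound by FXR (0.00913%), a loose direct repeat of it bound by HNF4A (2.78%), and CACGTG and TTATGTAA, the E-box and the D-box of clock factors (7.15% and 0.938%). Both strands were searched, and the longer nuclear receptor motifs overlap the hexamer. Nr1h4 held the hexamer at position -214 on the opposite strand, Nr0b2 held an E-box at position -195, and Cyp8b1, Fgfr4, Cyp27a1 and Klb held no match to these letters. CAAAGTCCA, a known HNF4A motif that 0.475% of promoters hold, and TCAAGG, the core of the LRH-1 motif that 14.4% hold, were added after the promoters had been read. Cyp8b1 held the former at position -67 and Nr0b2 the latter at positions -68 and -35, on the strand of the gene.

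Further genes of the pathway were taken from 4 lists of enzymes, redox partners, regulators and transporters, with 43 genes in all. 1 of the 43 passed, Abcc3, and 9 were higher and 6 lower in soy without overlap, beside 0.458% of all genes that passed and 9.68% higher and 10.8% lower without overlap. Abcc3, which exports bile acid and drug conjugates across the basolateral membrane, was 14.07, 14.03 and 14.00 in controls and 14.90, 14.77 and 14.92 in soy livers. The spread within each group was small beside the gap between them. It rose by 0.82 (SE 0.095, 95% interval 0.60 to 1.05, adjusted p = 0.0244 in limma), and its other probe gave 0.74 (adjusted p = 0.0824). The call was lost with a normexp offset of 16 (adjusted p = 0.0710), with slide (0.127) or the replicate number (0.0783) as a block and with any 1 array left out (0.0587 to 0.103), while the difference itself stayed between 0.78 and 0.88.

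Of the 13 further enzymes of bile acid synthesis, 0 passed, 4 were higher without overlap and 1 lower (9.68% and 10.8% of all genes), with a median difference of 0.17, or 0.09 without control 2. Acox2, the peroxisomal oxidase that shortens the side chain, was 15.00, 14.77 and 14.71 in controls and 15.54, 15.48 and 15.37 in soy livers. All soy values were above all control values, by 0.64 on average (SE 0.11, adjusted p = 0.0804 in limma), and by 0.65 on slide 1 and 0.66 on slide 3, and its dimmer probe gave 0.40. Acox2 did pass with the processed signal (adjusted p = 0.0152 in limma) and with only probes well above background (0.0453). The others higher without overlap were Acot8, a peroxisomal thioesterase, with 0.53, Cyp46a1, the cholesterol 24-hydroxylase, with 0.41, and Hsd17b4, the bifunctional enzyme of peroxisomal oxidation, with 0.23 (0.13 without control 2 and 0.15 without soy 2), named after their values were seen. Cyp2c70, which makes the muricholic acids of mice, was 16.83, 17.15 and 17.43 in controls and 16.80, 16.20 and 16.63 in soy livers. Soy 1 lay just below control 1 and the other soy arrays further down, a difference of -0.59 (SE 0.20, adjusted p = 0.312 in limma). Cyp39a1, the 24-hydroxycholesterol 7-alpha-hydroxylase, differed by 0.67 (SE 0.45, adjusted p = 0.627 in limma) with overlap, and by -0.34 on slide 1 and 1.68 on slide 3. Its difference was 0.22 without soy 3 and 1.16 without soy 1.

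The redox partners that pass electrons to these cytochromes were all lower on average, 0 of 3 passed (0.458% of all genes), and 1, Por, was lower without overlap (10.8% of all genes). Their median difference was -0.35, or -0.22 without soy 3. Por, which serves the microsomal cytochromes, was 16.59, 16.57 and 16.75 in controls and 16.55, 15.71 and 15.60 in soy livers. Soy 1 was just below the controls and soy 2 and 3 were further down, a difference of -0.68 (SE 0.24, adjusted p = 0.331 in limma), -0.03 on slide 1 and -1.15 on slide 3. Fdx1 and Fdxr, which serve mitochondrial Cyp27a1, differed by -0.35 (adjusted p = 0.448) and -0.12 (adjusted p = 0.749) in limma, both with overlap. Without soy 3 Fdx1 differed by -0.22, and Fdxr differed by -0.05 without control 1 and by -0.22 without control 3.

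Among the 13 regulators 0 passed, 1 was higher without overlap and 3 were lower (9.68% and 10.8% of all genes), with a median difference of -0.04 that turned to 0.10 without control 2 and was -0.12 without control 3. Mafg, a repressor of Cyp8b1 in the FXR pathway, was 14.20, 14.34 and 13.79 in controls and 14.46, 14.58 and 14.52 in soy livers. The soy values were close together and above the controls, with a difference of 0.41 (SE 0.15, adjusted p = 0.355 in limma), which was 0.25 without control 3. Prox1, a co-repressor of Cyp7a1, was 11.75, 12.16 and 11.75 in controls and 11.46, 11.39 and 11.48 in soy livers. Its soy values were likewise close together but below the controls, with a difference of -0.44 (SE 0.13, adjusted p = 0.257 in limma). Hnf4a, an activator of Cyp7a1 and Cyp8b1, differed by -0.25 (adjusted p = 0.495 in limma) with overlap, and by -0.16 without control 1. The other 2 lower without overlap were Nr1h3, the oxysterol receptor LXR-alpha, with -0.15 (-0.09 without control 2, and 0.04 with overlap on its other probe) and Gpbar1, a membrane receptor for bile acids, with -0.20, named after their values were seen.

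The 14 transporters included Abcc3, 4 of them were higher without overlap, and 1 was lower (9.68% and 10.8% of all genes), with a median difference of 0.00 that lay between -0.03 and 0.07 with 1 array left out. Abcc4, a second basolateral exporter, was 7.99, 8.00 and 7.71 in controls and 9.33, 8.46 and 8.70 in soy livers. Every soy value exceeded the controls and soy 1 was the highest, with a difference of 0.93 (SE 0.22, adjusted p = 0.155 in limma). Abcg8, which with Abcg5 exports sterols into bile, was 13.34, 12.99 and 12.86 in controls and 12.44, 12.11 and 12.08 in soy livers. The groups were apart by -0.86 on average (SE 0.16, adjusted p = 0.0906 in limma). Abcg8 did pass with the processed signal (adjusted p = 0.0276 in limma) and with only probes well above background (0.0485), and Abcc4 with the processed signal (0.0248). The others higher without overlap were Abcb4, the phospholipid flippase of the canaliculus, with 0.49 and Abcc2, a canalicular conjugate exporter, with 0.34. The canalicular bile salt pump Abcb11, an FXR target, differed by -0.00 (95% interval -0.42 to 0.42) and the uptake carrier Slc10a1 by 0.02 (95% interval -0.22 to 0.26), where its probe for another transcript gave -0.41 without overlap. With 1 array left out Abcb11 lay between -0.09 and 0.17 and Slc10a1 between -0.04 and 0.08, and these 4 were named after their values were seen.

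**Figure D4:**
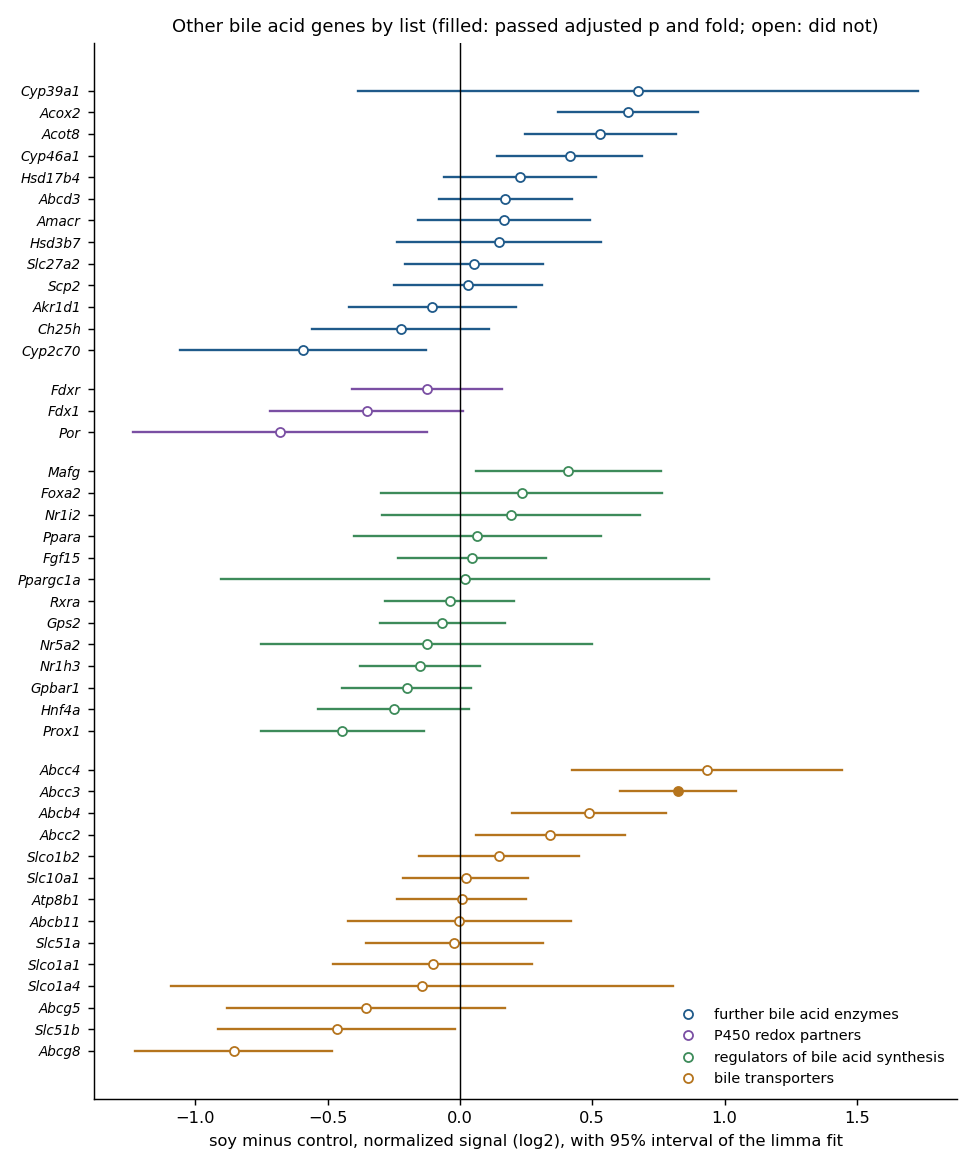
Difference of soy from control (log2) with its 95% interval for the 43 genes of the 4 lists, by brightest probe, filled where the gene passed and open where it did not. Abcc3 at 0.82 is the filled point, and Abcc4, Cyp39a1, Acox2, Por and Abcg8 lie farthest from 0 among the open points.

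Clock genes also stood apart in part between the diet groups, and Cyp7a1 and Cyp8b1 are known to cycle over the day. Of 15 clock genes 0 passed in limma, 9 had an unadjusted p under 0.05, 3 were higher and 4 lower in soy without overlap, and the median difference was -0.52, or -0.31 without soy 3. Of all genes 14.3% had an unadjusted p under 0.05, and 9.68% were higher and 10.8% lower without overlap. With the processed signal Nr1d1 (adjusted p = 0.0195 in limma) and Bhlhe41, a repressor of the E-box named after its values were seen, did pass. Bhlhe41, counted among the 4 lower without overlap, was well above background on 2 control arrays and on 0 soy arrays. Its other probe, at background on all arrays, gave 0.02 with overlap. Dbp, an output factor known to act on Cyp7a1, was 15.85, 15.97 and 14.86 in controls and 14.27, 13.86 and 10.76 in soy livers. Soy 3 was far below the other soy arrays, and all soy values lay under the controls, a difference of -2.59 (SE 0.85, adjusted p = 0.300 in limma), and it was -1.49 without soy 3. Nr1d1, the repressor REV-ERB-alpha, differed by -1.58 (SE 0.32, adjusted p = 0.106) and Arntl, the activator BMAL1, by 1.79 (SE 0.49, adjusted p = 0.210) in limma, and other Arntl probes gave 0.72 and -0.00. The summed signal of the clock list was 130430, 131020 and 79404 in controls and 77055, 58274 and 40299 in soy livers. The Dbp probe gave the most signal on the control arrays and the Tef probe on the soy arrays. The part of the clock in the bile acid genes was not tested, and since the hour of collection is not given, it cannot be told apart from the diet.

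**Figure D5:**
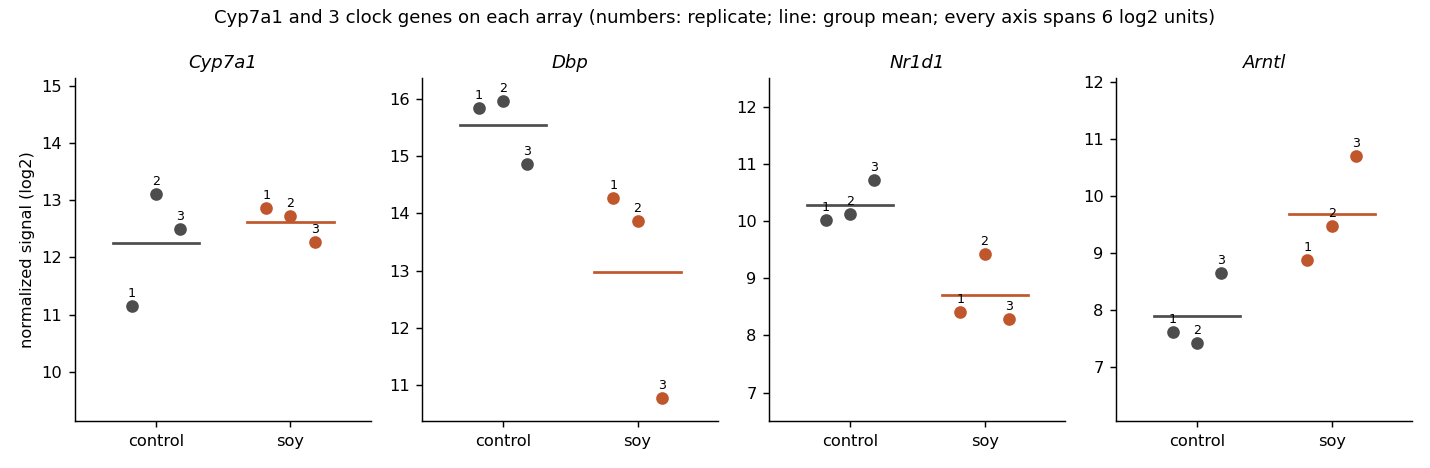
Normalized signal (log2) of Cyp7a1 and of the clock genes Dbp, Nr1d1 and Arntl on each control (grey) and soy (orange) array, with the replicate number at each point, the group mean as a line, and axes of equal span. The 3 clock genes separate the groups, with soy 3 lowest for Dbp at 10.76 and highest for Arntl, while Cyp7a1 does not.

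Cell types were checked by 37 markers in 7 lists, of which 0 passed, 3 had an unadjusted p under 0.05, 1 was higher and 3 were lower without overlap, where 14.3%, 9.68% and 10.8% of all genes lay. All 6 hepatocyte markers were well above background on every array. By brightest probe 5 of them were lower and 1 higher, with a median difference of -0.11, or 2 higher and a median of -0.03 without soy 3, and their summed signal in soy was 0.941 times that in controls. Serpina1a, the brightest, differed by -0.00, and by 0.13 with cyclic loess in place of quantile normalization. Tat, a tyrosine aminotransferase, differed by -0.76 (adjusted p = 0.323 in limma) with overlap. Cps1, the carbamoyl phosphate synthetase of the urea cycle, differed by -0.47 (adjusted p = 0.176 in limma) without overlap. Of 6 cholangiocyte markers 3 were higher and 3 lower, with a median of -0.01 (-0.07 to 0.05 with 1 array left out) and a summed ratio of 1.07, and Spp1, the brightest, differed by 0.15, or 0.02 without soy 3 and 0.36 without control 1. Epcam, counted as higher, was at background on all arrays, and Krt7 and Cftr, counted as lower, on all soy arrays. Of 6 Kupffer cell markers 5 were higher and 1 lower, with a median of 0.19 and a summed ratio of 1.16, and without control 1 there were 3 higher and 3 lower, with a median of 0.07 and a ratio of 1.02. Without soy 3 the tally was likewise 3 and 3 and the median 0.07. Cd5l, the brightest of these, differed by 0.45, or 0.20 without control 1, and the scavenger receptor Marco by -0.73, or -0.20 without control 3. Of 5 sinusoidal endothelial markers 2 were higher and 3 lower, with a median of -0.06 (-0.10 to -0.01 with 1 array left out) against a summed ratio of 1.09. Clec4g, the brightest of these, differed by 0.20, or 0.11 without soy 2, and Lyve1 by -0.66, or -0.04 without control 1. Of 6 stellate markers 1 was higher and 5 were lower, with a median of -0.10 (2 higher and -0.04 without control 1, 0 higher and -0.17 without soy 1) and a summed ratio of 0.912, and Dcn, the brightest, differed by -0.08, or -0.14 without control 2 and -0.04 without control 3. Des, the stellate marker that was higher, was at background on all soy arrays. All 3 red cell markers were higher on average, and 1 of 3 without soy 2 or without control 2, with a median of 0.26 (-0.07 without soy 2 and -0.03 without control 2) and a summed ratio of 1.24 that was 0.930 without soy 2, and Hba-a1, the brightest, differed by 0.26, or -0.07 without soy 2. Of 5 intestinal markers 1 was higher and 4 were lower (0 to 2 higher with 1 array left out), with a median of -0.14 (-0.25 without soy 2), and the summed ratio of 0.796 was 0.918 without control 1. Among them Vil1 and Lct were at background on all arrays and Sis on 5 of 6, Fabp2, the brightest, differed by -0.26, or -0.05 without control 1, and Slc10a2, the ileal bile acid carrier, by -0.84 without overlap. Tat, Marco, Lyve1, Cps1, Slc10a2, Epcam, Krt7, Cftr and Des were named after their values were seen. The part of other cell types in the bile acid genes was not tested.

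The first step of the classic route lies mainly in hepatocytes near the central vein. Markers of position in the lobule were therefore read as well, and 0 of them passed. Oat and Pck1 did pass with the 75th percentile shift, with only probes well above background, with trend and robust settings and with the processed signal, Pck1 also with cyclic loess, Sds with the processed signal and without control 3, and Oat without soy 1. Of 7 pericentral markers 1 was higher and 1 lower without overlap (9.68% and 10.8% of all genes), their median difference was -0.19 (-0.10 without control 3 and -0.30 without soy 1), and their summed signal was 496710, 492160 and 491800 in controls and 459220, 410730 and 365340 in soy livers, with Cyp2e1 the brightest. Oat, an ornithine aminotransferase, differed by -1.28 (SE 0.20, adjusted p = 0.0591 in limma), Lgr5, a receptor of Wnt signalling, by 0.75 (adjusted p = 0.254) and Rhbg, an ammonium transporter, by -0.50 (adjusted p = 0.514), which was -0.23 without control 3 and -0.75 without control 1. The other pericentral markers, named after their values were seen, all overlapped. Glul differed by -0.17 (-0.10 and 0.02 on its other probes) and Cyp2e1 by -0.19. Axin2 differed by -0.11 (0.0045 without soy 1) and Slc1a2 by -0.20 (0.14 without control 3). Of 6 periportal markers 0 were higher and 2 lower without overlap (9.68% and 10.8% of all genes), with a median difference of -0.41 and Cyp2f2 the brightest, and the summed signal was 641130, 631660 and 558180 in controls and 508530, 421400 and 470060 in soy livers. Sds, a serine dehydratase, differed by -1.13 (SE 0.26, adjusted p = 0.152 in limma), Pck1, the gluconeogenic carboxykinase, by -0.84 (SE 0.13, adjusted p = 0.0568) and Gls2, the liver glutaminase, by -0.43 (adjusted p = 0.387). The other periportal markers, named after their values were seen, all overlapped. Aldh1b1 differed by -0.40 (-0.21 without soy 3), Cyp2f2 by -0.07 and Hal by 0.00. Both lists were thus lower in sum in every soy liver, though not in every gene, and their part in the bile acid genes was not tested.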

How the data were processed

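Liver RNA of 6 male mice, 3 per diet, was measured with 1 Agilent array per mouse. The authors deposited Feature Extraction 11.5.1.1 output, in which, per the file headers, median pixel intensities of spots and local background are uncorrected and unscaled, beside a processed intensity with background and spatial trend subtracted, and marks for spots well above background, saturated or outlying. They also deposited a table of log2 values that differ by 0.0561 at most from those computed here. Since the methods name raw median signals and limma, median intensities went through normexp (offset 50), removal of control spots, quantile normalization and log2, with outlier spots dropped and repeated spots averaged. Each of 56605 probes was fitted with limma 3.58.1 in R 4.3.3 with Benjamini-Hochberg adjustment over all of them, and nothing was adjusted over the 10 genes alone. Symbols came from RefSeq accessions through a GRCm38.p6 table for 32994 probes, and since the array design used another build, no gene coordinates are given beside the promoters. How the mice were divided among cages is not given, and p-values measure the spread between these 6 samples. Plots used Python 3.11.15 and matplotlib 3.10.9.

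The 10 genes and the lists were chosen with earlier results of these data known. Named genes were all 10 genes, the genes of every other list that passed, the 3 of each such list with the largest difference among those above background throughout 1 group or both, and the brightest gene of each cell type list. Alternatives were an offset of 16, no background correction, the software's processed signal after division by its 75th percentile, a 75th percentile shift of the median signal, cyclic loess, outlier spots kept, testing only probes above background throughout a group, eBayes with trend and robust settings, a block for replicate number or for slide, the deposited log2 values, adjusted p alone, the mean of a gene's probes, and each array left out. The fit was tested on simulated data.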

Additional observations from a re-analysis of the deposited data

How the results depend on the processing

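The count of all probes that passed, 198, was 77 with a normexp offset of 16, 13138 with the processed signal (90.8% of them higher in soy, against 59.6% as reported), 299 with the 75th percentile shift, 493 with only probes well above background, 77 with the replicate block, 24 with slide as a block, and 23 to 199 with 1 array left out, the lowest counts being 25 without soy 2 and 23 without soy 3. The median of all probes was 0.13 both with the processed signal, which was scaled to the 75th percentile, and with the 75th percentile shift of the median signal, and -0.00 and 0.02 over the probes above background on all 6 arrays. Of the 10 bile acid genes 0 passed under every alternative except the processed signal, where 1 did (Cyp8b1), and the 4 genes higher without overlap were the same 4 under every other signal, scaling or probe summary. Of the other bile acid, clock and zonation genes, where 1 passed, the count of those that passed was 0 with an offset of 16, the replicate block or slide as a block, 9 with the processed signal, 3 with the 75th percentile shift, 2 with cyclic loess, 5 with only probes well above background, 3 with trend and robust settings, and 0 to 1 with 1 array left out, where Sds passed without control 3 and Oat without soy 1. Directions turned for some of the named genes, mostly those with small differences. With the processed signal Nr0b2 was 0.00071, Klb -0.013, Slc27a5 -0.039 and Serpina1a 0.099. With the 75th percentile shift Cyp7b1 was -0.0099, Klb -0.0052, Slc27a5 -0.080 and Serpina1a 0.089. With cyclic loess Slc27a5 was -0.048 and Serpina1a 0.13, with slide as a block Nr0b2 was 0.098 and Hba-a1 -0.12, and with the mean of a gene's probes Klb was -0.082. With 1 array left out Cyp7a1 lay between -0.19 and 0.79, Cyp7b1 between -0.13 and 0.25, Nr0b2 between -0.18 and 0.096, Klb between -0.22 and 0.22, Slc27a5 between -0.11 and 0.088, Serpina1a between -0.038 and 0.018 and Hba-a1 between -0.068 and 0.50. Deviations of samples with the same replicate number correlated at 0.12, -0.06 and 0.11, and not every sample correlated best with its own number. Control 1 and soy 1 share a slide, as do control 3 and soy 3, so these values cannot decide whether the numbers pair the mice. With slide as a block, slide 2 holds 1 soy array. All 10 genes were well above background by their brightest probe, yet the adjusted p of Cyp8b1 was 0.222 with an offset of 16 and 0.0196 with the processed signal, for which the cause was not tested. It was 0.0750 with only probes well above background, where fewer probes were tested (32380) and its difference of 0.71 was the same.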
